A study of Homo sapiens with 6 samples.

Results

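Cancer-testis and germline genes are genes whose transcripts are normally found in the testis or in germ cells and that some tumours express. Of 38 such genes examined here, 30 were measured by an array feature annotated to that gene alone, among 16704 genes measured in this way in all. Cytoplasmic RNA came from LNCaP cells, an androgen-responsive prostate cancer line, and each of 6 clones was hybridised to 1 Affymetrix human Gene ST array. The 3 control clones stably carried a scrambled short hairpin RNA and the 3 knockdown clones one against MBD2, all in the siLentGene-2 vector under neomycin selection. Each sample is thus 1 clone of 1 line, and the spread between samples includes differences between clones that were already there.

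Cancer-testis genes fall into X-linked families such as MAGE, GAGE, SSX, PAGE, XAGE and CTAG, many with near-identical copies, and single-copy genes on autosomes. In somatic cells the promoters of many of them carry methylated CpG dinucleotides, and drugs that lower DNA methylation are known to switch several on. MBD2 binds methylated CpGs and recruits the NuRD histone deacetylase complex, so these genes are a natural place to look for loss of repression. DNA methylation was not measured in the arrays used here.

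MBD2 was lower in every knockdown clone. Its log2 values were 8.73, 9.24 and 9.20 in control clones 1, 2 and 3 and 7.68, 7.84 and 7.81 in knockdown clones 1, 2 and 3, so the groups did not overlap. The knockdown clones held 41.2% of the control level (log2 difference -1.28, SE 0.14, adjusted p = 0.111 by limma over all genes). An exact two-sided permutation test gave 0.1, the smallest p that 3 against 3 allows. The luminal prostate genes KLK2, KLK3, KRT8, KRT18 and HOXB13 had control means of 8.54 to 10.69, as the label of an LNCaP line implies, while 13 markers of basal, fibroblast and blood cells ranged from 2.39 for LUM to 7.09 for COL1A1. Values spread less on the array of knockdown clone 1 (SD 2.00 over all genes, and 2.05 to 2.07 on the other arrays). Its lower quartile was 4.83, and 4.71 to 4.74 on the others, so dim genes tended to read higher on it.

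The sequences just upstream of 4 of these genes are shown because CpGs are what MBD2 can bind when they are methylated. XAGE1A shares with its copy XAGE1B the feature that differed most on knockdown among those described here, MAGEC1 is an X-linked gene whose groups did not overlap, MAGEC2 is its relative that varied between clones, and DAZL is a CpG-dense germline gene at background level. The 250 bases before the start of each gene in RefSeq (GRCh38.p14) are chrX:52495558-52495807 (+ strand) for XAGE1A, chrX:141903644-141903893 (+ strand) for MAGEC1, chrX:142205291-142205540 (- strand) for MAGEC2 and chr3:16605424-16605673 (- strand) for DAZL. They are written 5′ to 3′ on the strand of the gene, with each CpG in capitals.
XAGE1A: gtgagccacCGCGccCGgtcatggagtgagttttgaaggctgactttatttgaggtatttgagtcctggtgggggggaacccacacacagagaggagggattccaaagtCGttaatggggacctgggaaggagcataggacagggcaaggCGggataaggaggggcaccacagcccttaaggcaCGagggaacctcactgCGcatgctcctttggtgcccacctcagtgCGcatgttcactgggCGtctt
MAGEC1: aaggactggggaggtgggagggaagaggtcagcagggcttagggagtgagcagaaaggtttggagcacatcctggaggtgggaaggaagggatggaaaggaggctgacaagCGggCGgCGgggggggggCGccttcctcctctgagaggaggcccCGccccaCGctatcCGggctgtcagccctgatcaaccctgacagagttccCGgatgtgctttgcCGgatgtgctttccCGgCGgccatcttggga
MAGEC2: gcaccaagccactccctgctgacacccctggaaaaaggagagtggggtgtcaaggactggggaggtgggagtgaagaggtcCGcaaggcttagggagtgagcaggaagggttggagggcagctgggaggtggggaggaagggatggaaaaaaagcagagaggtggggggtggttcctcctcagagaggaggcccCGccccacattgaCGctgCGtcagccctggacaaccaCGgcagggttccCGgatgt
DAZL: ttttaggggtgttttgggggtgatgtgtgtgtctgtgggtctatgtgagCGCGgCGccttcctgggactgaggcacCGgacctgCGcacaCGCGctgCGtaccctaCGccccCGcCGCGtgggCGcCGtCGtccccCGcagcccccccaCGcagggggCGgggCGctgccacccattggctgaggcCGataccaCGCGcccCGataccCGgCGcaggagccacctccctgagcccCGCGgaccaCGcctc

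These windows held 9 CpGs for XAGE1A, 11 for MAGEC1, 6 for MAGEC2 and 28 for DAZL. Of the 24879 genes with an entry that starts at the 5′ end of the gene, 53.2%, 49.4%, 60.8% and 15.1% respectively held at least as many, and the median was 10. Of the 38 genes, 25 had such an entry. Those without were CTAG1B, CTAG2, DDX4, HORMAD1, MAGEA1, MAGEA10, MAGEA11, PIWIL2, SPATA22, STK31, SYCP1, TDRD1 and TEX14. The 14 X-linked genes among the 25 held 3 to 15 CpGs (median 9) and the 11 autosomal ones 2 to 51 (median 19). MAEL, a piRNA pathway gene, had 51, which 0.1% of all genes reached, and TEX101, a glycoprotein of germ cell membranes, had 2. MAEL, TDRD9 and DAZL, the 3 of these genes with the most CpGs, had low control means of 2.81, 2.96 and 3.59. TEX101, with the fewest, was low too at 3.42. DDX43 and SYCP3, with 16 and 19 CpGs, had control means of 5.98 and 5.47. PRAME and PAGE5, with 9 CpGs each, had 8.75 and 5.53, and SSX1, with 3, had 5.09. A relation of CpG number to level was not tested.

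Most of the 30 measured genes lay at background in the control clones. The arrays give no detection call, so the level was set against 212 olfactory receptor genes, which an epithelial line is not known to express. Of the 30 genes, 22 had a control mean at or under 4.91, the 95th percentile of the olfactory receptors, and 8 lay above it, where 71.9% of all genes did. Features differ in their own brightness, so this is a band and not a proof of silence or expression. Of 13 markers of spermatids and of testis somatic cells, which LNCaP cells have no known reason to express, 4 lay above the band too, up to 6.18 for AMH, as did 5 of 13 markers of basal, fibroblast and blood cells, up to 7.09 for COL1A1. PRAME, CTAG2, MAGEA1 and MAGEA10 were the 4 genes of the set with control means above that of AMH, and PRAME alone exceeded the 7.09 of COL1A1. Nearest to the limit were SSX1 at 5.09, just inside the higher side, and TDRD1 at 4.80, just outside it.

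**Figure D1:**
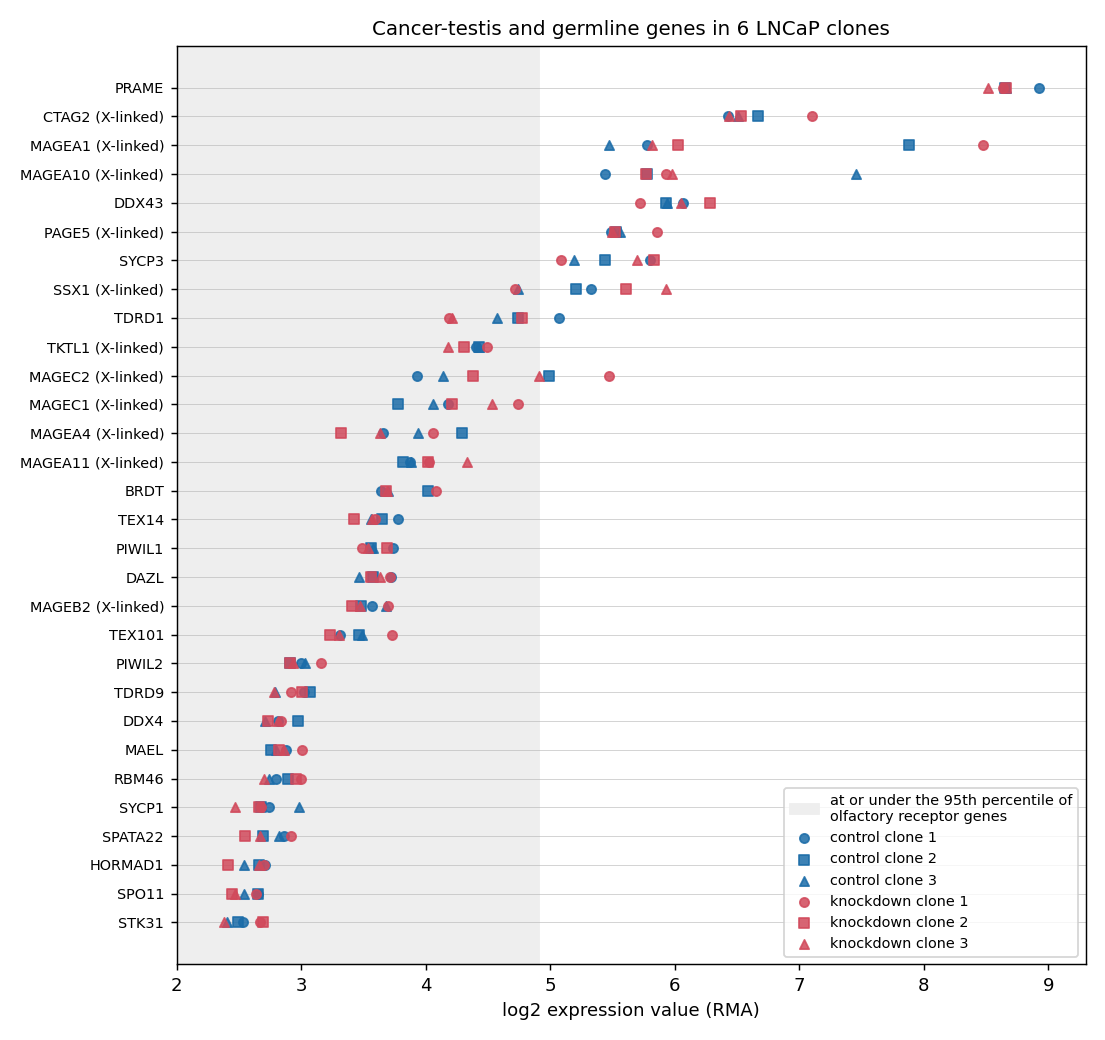
Log2 expression value (horizontal axis) of the 30 measured cancer-testis and germline genes in each of 6 clones, ordered by control mean. Blue symbols are control clones and red symbols knockdown clones, with circle, square and triangle for clones 1, 2 and 3; the grey band ends at 4.91. PRAME stands highest in every clone, 22 genes have control means inside the band, and MAGEA1 and MAGEA10 each have clones far from the rest.

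PRAME, a leucine-rich repeat protein that serves as a substrate receptor of a ubiquitin ligase and represses retinoic acid signalling, was the brightest of the 30. Its log2 values were 8.93, 8.65 and 8.66 in control clones 1 to 3 and 8.64, 8.66 and 8.52 in knockdown clones 1 to 3. All 6 clones were high and the groups overlapped, with a log2 difference of -0.14 (95% interval -0.38 to 0.09, adjusted p = 0.727). CTAG2, which codes for the antigen LAGE-1, stood at 6.43, 6.67 and 6.51 in the controls and at 7.10, 6.53 and 6.44 in the knockdown clones. Knockdown clone 1 was the highest, and knockdown clones 2 and 3 lay within the control range (log2 difference 0.15, adjusted p = 0.838). PAGE5, of the GAGE-related PAGE family, stood at 5.49, 5.53 and 5.56 against 5.86, 5.52 and 5.50, again with knockdown clone 1 alone above the controls (0.10, adjusted p = 0.835).

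The autosomal genes above the band showed no separation of the groups. DDX43, a helicase also known as HAGE, stood at 6.07, 5.93 and 5.94 in the controls and 5.72, 6.28 and 6.05 in the knockdown clones. Its knockdown clones spanned the whole control range (log2 difference 0.03, adjusted p = 0.966). SYCP3, a component of the synaptonemal complex that holds paired chromosomes together in meiosis, stood at 5.80, 5.44 and 5.19 against 5.09, 5.83 and 5.70. Knockdown clone 1 was the lowest of all 6 and knockdown clone 2 the highest (0.07, adjusted p = 0.955).

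No measured gene of the set passed the threshold of an adjusted p under 0.05 on knockdown, nor did any of the 16704 genes (0.0%). The smallest adjusted p in the set was 0.404. At an unadjusted p under 0.05, 2 of 30 genes were higher and 0 lower, where 3.93% of all genes were higher and 5.45% lower. Group values did not overlap in the same 2 genes, both higher, where 6.57% of all genes were non-overlapping and higher and 8.87% non-overlapping and lower. The 2 of 30 are 6.67%, close to that background. With 1 clone left out the count at an unadjusted p under 0.05 was 1 to 4, and the count without overlap was 3 to 10, with 10 without knockdown clone 1 and 3 to 6 without any 1 of the others. Groups with fewer clones part more easily, and the shares over all genes are not given for these fits. Without knockdown clone 1, 70 of all genes passed the adjusted threshold, so these counts are no result about the set. The median log2 difference was 0.012 over the 30 genes and -0.004 over all genes, with 16 means higher and 14 lower. None differed by 2-fold or more, as 0.377% of all genes did. For 26 of the 30 genes the 95% interval lay within a 2-fold change in both directions, against 97.4% of all genes, and the 4 exceptions were MAGEA1, MAGEA10, MAGEC2 and SSX1.

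**Figure D2:**
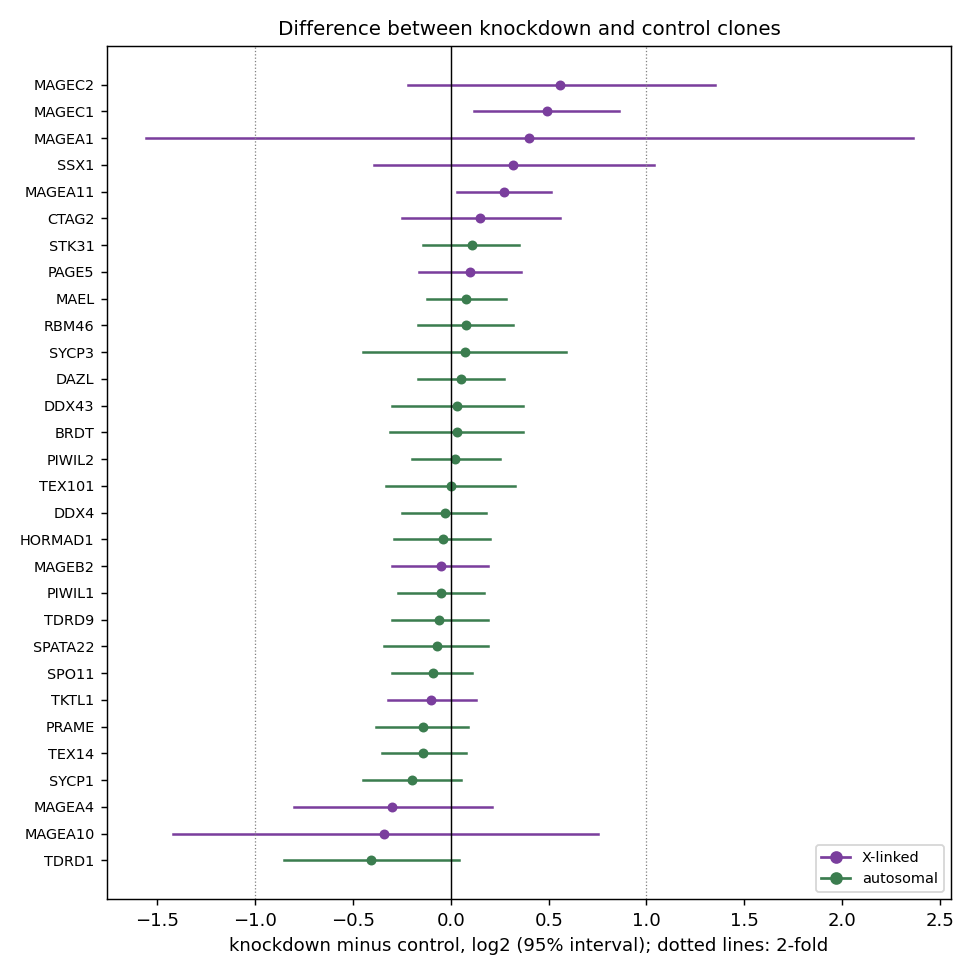
Knockdown minus control on the log2 scale (horizontal axis) for each of the 30 genes, with 95% intervals from limma; purple is X-linked, green autosomal, and dotted lines mark 2-fold. Intervals of MAGEC1 and MAGEA11 lie above 0, with adjusted p of 0.404 and 0.48, and that of MAGEA1 is the widest.

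The 2 genes whose groups did not overlap both belong to the MAGE family, whose members bind and steer ubiquitin ligases. MAGEC1 stood at 4.18, 3.78 and 4.06 in control clones 1 to 3 and at 4.74, 4.21 and 4.53 in knockdown clones 1 to 3. Every knockdown clone lay above every control, with only 0.03 between control clone 1 and knockdown clone 2 (log2 difference 0.49, 95% interval 0.12 to 0.86, adjusted p = 0.404 in limma). MAGEA11, which is also known as a coregulator of the androgen receptor, stood at 3.87, 3.82 and 3.88 against 4.03, 4.02 and 4.33. Knockdown clone 3 was well above the others and knockdown clones 1 and 2 just above the controls (0.27, 95% interval 0.03 to 0.51, adjusted p = 0.48 in limma). Both genes stayed under the background limit in all clones. After a further quantile normalization or cyclic loess, 1 of the pair, MAGEC1, kept an unadjusted p under 0.05.

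Several other MAGE genes differed more between clones than between groups. Features of MAGE, SSX and CTAG genes can also pick up transcripts of close relatives, so a value may not belong to 1 gene alone. MAGEA1, the founding member of the MAGE family of tumour antigens, stood at 5.78, 7.88 and 5.47 in the controls and 8.48, 6.03 and 5.82 in the knockdown clones. Control clone 2 and knockdown clone 1 were high and the other 4 clones low, a spread of 2.41 among controls and 2.67 among knockdown clones on the log2 scale. In RNA of a whole culture, fewer expressing cells and less RNA per cell cannot be told apart. The log2 difference of 0.40 had a 95% interval of -1.56 to 2.36 (adjusted p = 0.924). It was -0.45 without knockdown clone 1, 1.15 without control clone 2 and -0.05 without control clone 3. MAGEC2 stood at 3.93, 4.99 and 4.14 against 5.47, 4.38 and 4.91. The same pair of clones was highest, and knockdown clone 3 followed close behind control clone 2 (0.56, 95% interval -0.22 to 1.35, adjusted p = 0.662).

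MAGEA10 was high in a different clone. It stood at 5.44, 5.78 and 7.46 in the controls and 5.93, 5.77 and 5.98 in the knockdown clones, so that control clone 3 alone stood apart. The log2 difference was -0.34 (95% interval -1.42 to 0.75, adjusted p = 0.873) and turned to 0.28 without that clone. MAGEA4 stood at 3.66, 4.29 and 3.94 against 4.06, 3.32 and 3.63, with overlap (-0.30, adjusted p = 0.734). MAGEB2 had a control mean of 3.58 and a log2 difference of -0.05.

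SSX1, a transcriptional repressor best known from the fusion gene of synovial sarcoma, also split by clone. Its values were 5.33, 5.21 and 4.74 in the controls and 4.72, 5.61 and 5.93 in the knockdown clones. Knockdown clones 2 and 3 lay above all controls and knockdown clone 1 below them (0.32, 95% interval -0.39 to 1.04, adjusted p = 0.802). TKTL1, a transketolase-like enzyme, was even across clones, with a control mean of 4.42 and a log2 difference of -0.10.

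A range of at least 2-fold over the 6 clones was found in 4 of the 30 genes (13.3%), against 4.08% of all genes. These were MAGEA1, MAGEA10, MAGEC2 and SSX1, all on the X chromosome, out of 11 X-linked and 19 autosomal genes measured. Among the 3 control clones alone such a range was found in MAGEA1, MAGEA10 and MAGEC2 (1.22% of all genes), and among the 3 knockdown clones in MAGEA1, MAGEC2 and SSX1 (1.83% of all genes). Control clone 2 and knockdown clone 1 formed the highest pair in 6 of the 30 genes, and in 10.7% of all genes. Knockdown clone 1 was the highest clone in 13 of 30 genes (43.3%), in 31.1% of all genes and in 81 of 212 olfactory receptors (38.2%). The part of the smaller spread on that array in these counts was not tested.

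**Figure D3:**
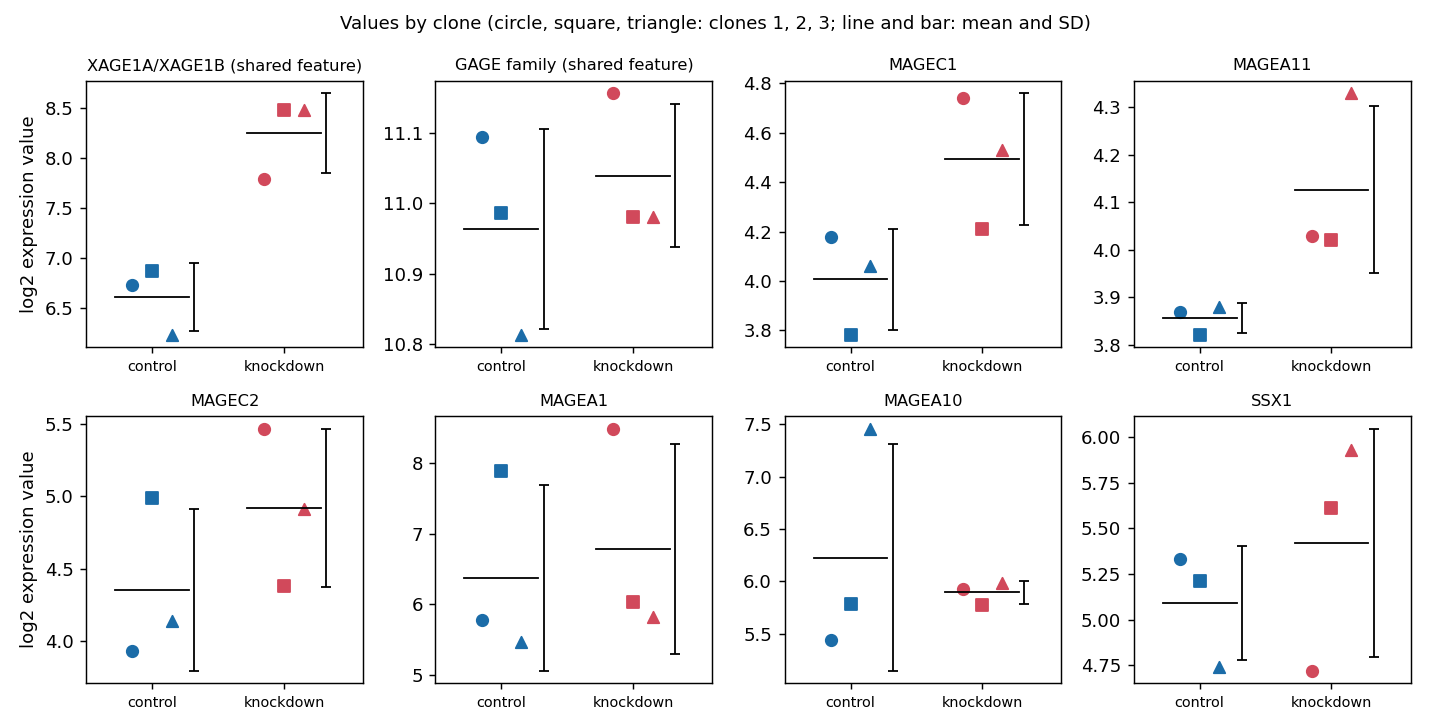
Log2 expression value by clone for 2 shared features and 6 X-linked genes, each panel on its own vertical scale. Blue marks control and red knockdown clones, circle, square and triangle clones 1, 2 and 3, and the line and bar give the mean and SD (n = 3). For XAGE1A/XAGE1B and MAGEC1 every knockdown clone lies above every control, while MAGEA1, MAGEC2 and MAGEA10 each have single clones far above the rest of their group.

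The other autosomal germline genes were dim, and none ranged 2-fold over the 6 clones. Those of the piRNA pathway, which silences transposons in germ cells, were PIWIL1 and PIWIL2, the Argonaute proteins that carry piRNAs, and MAEL, DDX4, TDRD1 and TDRD9. Of these TDRD1, a Tudor-domain scaffold, was the brightest, at 5.07, 4.74 and 4.57 in the controls and 4.19, 4.77 and 4.21 in the knockdown clones. Knockdown clones 1 and 3 were below all controls and knockdown clone 2 was among them (-0.41, 95% interval -0.85 to 0.04, adjusted p = 0.571). The other 5 had control means of 2.81 to 3.63 and log2 differences of -0.06 to 0.08.

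The genes of meiotic chromosomes and recombination were similar. SYCP1, which forms the transverse filaments of the synaptonemal complex, stood at 2.74, 2.68 and 2.98 against 2.68, 2.66 and 2.47, so that the groups met at about 2.68 (-0.20, adjusted p = 0.633). SPO11, the enzyme that makes meiotic DNA breaks, stood at 2.65, 2.65 and 2.54 against 2.64, 2.44 and 2.47, with overlap (-0.09, adjusted p = 0.797). TEX14, needed for the bridges between germ cells, stood at 3.78, 3.65 and 3.56 against 3.59, 3.42 and 3.57, also with overlap (-0.14, adjusted p = 0.716). HORMAD1 and SPATA22, which act in meiotic recombination, had control means of 2.63 and 2.79 and log2 differences of -0.04 and -0.07. The remaining 5 autosomal genes were DAZL and RBM46, RNA-binding proteins of germ cells, BRDT, the testis bromodomain protein, STK31 and TEX101. Their control means lay between 2.47 and 3.79 and their log2 differences between 0.00 and 0.11.

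The other 8 genes have no feature of their own and are annotated only on features shared with near-identical relatives: MAGEA3, MAGEA6, MAGEA12, GAGE1, SSX2, SSX4, CTAG1B and XAGE1A. Their shared features give the level of a group of copies and not of 1 gene. For these the whole table of 19712 features was fitted together, in which 0.0% passed an adjusted p under 0.05 and 0.233% were at least 2-fold higher on knockdown.

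The feature shared by XAGE1A and XAGE1B, copies that code for the cancer-testis antigen XAGE-1, differed most. Its log2 values were 6.73, 6.87 and 6.22 in control clones 1 to 3 and 7.79, 8.48 and 8.48 in knockdown clones 1 to 3. Every knockdown clone lay above every control, as in 6.57% of all genes, here by 0.92 at the least. The knockdown mean was 8.25 ± 0.40 against 6.61 ± 0.34 in the controls (SD, n = 3 each), which is 3.12-fold higher with a 95% interval of 2.14 to 4.55 (log2 difference 1.64, SE 0.23). It ranked 19 by p among the 19712 features, with an adjusted p of 0.135 in limma, and so did not pass. Without knockdown clone 1 the log2 difference was 1.87 with an adjusted p of 0.0355 in limma. In the fit of genes, 70 genes also passed without that clone. Without any 1 of the other clones it was 1.45 to 1.77, with an adjusted p of 0.254 to 0.54. The array carries 5 features with these 2 symbols and identical values, which are 1 measurement. All 5 were kept in the fit, so the adjustment counted it 5 times, which can lower its adjusted p. They are also 5 of the 46 features that make up the 0.233% at least 2-fold higher. XAGE1A lies at chrX:52495808-52500812 in RefSeq (GRCh38.p14).

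The other shared features differed less. The feature listing 12 GAGE symbols was the brightest of all those described here, at 11.09, 10.99 and 10.81 in the controls and 11.16, 10.98 and 10.98 in the knockdown clones (log2 difference 0.08, 95% interval -0.16 to 0.31). The 2 features listing MAGEA3 and MAGEA6 had control means of 8.22 and 8.58 and log2 differences of -0.09 and -0.08. The 3 features listing MAGEA12 with other symbols had control means of 7.20 to 8.15 and differences of -0.01 to 0.10. In the 1 shared with CSAG4 every knockdown clone lay above every control, as in 6.57% of all genes. The gap there was 0.02 (log2 difference 0.10, adjusted p = 0.732 in limma). All 6 clones thus carried high signal for these groups, with 95% intervals well inside a 2-fold change. The feature listing CTAG1A, CTAG1B and CTAG2 stood at 6.24, 6.32 and 6.20 against 6.90, 6.24 and 6.17, with knockdown clone 1 alone above the controls, as for the feature of CTAG2. The 4 features listing SSX genes had control means of 4.81 to 5.53 and differences of 0.17 to 0.28. Like the feature of SSX1, they were highest in knockdown clones 2 and 3. All 4 list SSX1 among their symbols, so they are not a reading of other genes alone.

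Of 38 further cancer-testis genes measured, 0 passed over all genes, and the median log2 difference was 0.058. At an unadjusted p under 0.05, 0 were higher and 3 lower (7.89%), against 3.93% and 5.45% of all genes. The 3 with the smallest p were ZNF165 (-0.62, adjusted p = 0.315), XAGE5 (-0.32, adjusted p = 0.385), a relative of XAGE1A at background level, and CEP55 (-0.46, adjusted p = 0.393), which acts in the last step of cell division. Of 61 further germline genes, 0 passed, and the median was 0.011. At an unadjusted p under 0.05, 5 were higher (8.20%) and 3 lower (4.92%), against the same 3.93% and 5.45%. MND1, which acts with DMC1 in strand exchange, had -0.62 (adjusted p = 0.229), HENMT1, which methylates the ends of piRNAs, had -0.34 (adjusted p = 0.288), and SYCP2, a partner of SYCP3, had 0.68 (adjusted p = 0.315). SYCP2 stood at 3.80, 4.48 and 4.18 in the controls and at 4.87, 4.70 and 4.95 in the knockdown clones, without overlap.

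Factors known to act on such promoters were bright, with control means above the background limit in 36 of 38 measured. Most act in silencing, among them DNA methyltransferases, other methyl-CpG binding proteins, the E2F6 and PCGF6 form of Polycomb complex 1 and histone H3 lysine 9 methyltransferases, while TET1, TET2, TET3, CTCFL, SP1 and ETS1 remove methylation or can activate. None passed the threshold, and the median log2 difference was -0.069, with 29 means lower and 9 higher. At an unadjusted p under 0.05, 0 were higher and 5 lower (13.2%), against 5.45% of all genes lower, and 9 were lower without overlap (23.7%), against 8.87%. The 3 with the smallest p were the deacetylase gene SIRT1 (-0.45, adjusted p = 0.337), the methylcytosine dioxygenase gene TET1 (-0.31, adjusted p = 0.404) and YAF2 (-0.30, adjusted p = 0.415), a Polycomb subunit. The median was -0.031 after a further quantile normalization and -0.041 after cyclic loess.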

How the data were processed

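RNA of 6 LNCaP clones was measured, and the authors deposited log2 expression values per array feature. RMA, oligo and limma are named per the submitters' processing notes; no version or filter is given in the sources used here, and the log2 scale was taken from the range of the values and from RMA. Of 19712 features 17334 list 1 gene symbol, 1521 several and 857 none. Genes were named from the first kind, with the brightest feature standing for a gene with several, giving 16704 genes; each of the 30 genes described has 1 feature.

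The 2 groups were compared with limma 3.58.1 (lmFit, eBayes; R 4.3.3) without covariates, with Benjamini-Hochberg adjustment over all genes and a threshold of 0.05. Intervals are 95% intervals of that fit. Features with several symbols were tested in a fit of all features, which was added after the data were seen. Features with identical values were each kept in that fit. The number of arrays limits the precision. The p-values set each group difference against the spread between clones, which limma moderates with that of all genes.

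The genes and lists were chosen with earlier results of these data known. Per clone values are given for MBD2, the 10 genes of the set with the smallest p, those without overlap and those above the background limit; from each other list the 3 genes with the smallest p are named. Alternatives were centring on array medians, cyclic loess, repeated quantile normalization, a filter on the dimmest 30% of genes, trend and robust eBayes, a replicate block, array weights, the mean of a gene's features, leaving out each clone, and for the background limit the 99th percentile and the lower quartile of the arrays. The fit was tested on simulated data.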

Additional observations from a re-analysis of the deposited data

Results flagged for a closer look

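The feature shared by XAGE1A and XAGE1B lies outside the genes measured by a feature of their own. It is listed here because every knockdown clone was above every control clone, as in 6.57% of all genes. Its knockdown mean was 8.25 against 6.61 in the controls. The feature did not pass over all features (adjusted p = 0.135 in limma). Which of the copies gives the signal cannot be told from this feature.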

How the results depend on the processing

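None of the 30 genes passed under any alternative in which it was tested. The filter on the dimmest 30% of genes kept 8 of the 30, and the others were not tested there. Of 398 recomputed log2 differences of single genes, 362 kept their direction and 36, in 16 genes, changed sign. Array weights were 0.252 for knockdown clone 1 and 3.43 for knockdown clone 2. Under them MAGEA1 turned to -0.51, CTAG2 to -0.02, TEX101 to -0.15, BRDT to -0.12, PIWIL1 to 0.04 and PIWIL2 to -0.04. TEX101 was 0.00 (slightly negative) with arrays centred and -0.03 after quantile normalization and after cyclic loess, BRDT was 0.00 after both, and PIWIL2 was -0.01 after quantile normalization. With 1 clone left out, the genes that changed sign ranged from -0.45 to 1.15 for MAGEA1, -0.73 to 0.28 for MAGEA10, -0.14 to 0.01 for MAGEB2, -0.05 to 0.28 for CTAG2, -0.02 to 0.17 for PAGE5, -0.02 to 0.11 for DAZL, -0.09 to 0.04 for DDX4, -0.08 to 0.29 for SYCP3, -0.14 to 0.00 for TDRD9, -0.15 to 0.09 for TEX101, -0.10 to 0.15 for BRDT, -0.11 to 0.01 for PIWIL1, -0.06 to 0.07 for PIWIL2, -0.18 to 0.01 for SPATA22, -0.10 to 0.05 for HORMAD1 and -0.09 to 0.18 for DDX43.

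The count at an unadjusted p under 0.05 was 1 after quantile normalization and after cyclic loess, 0 without the dimmest 30% of genes and 6 with array weights, and 1 to 4 when 1 clone was left out. The count without overlap was 3 with arrays centred, 4 after quantile normalization and after cyclic loess, 0 without the dimmest genes and 3 to 10 when 1 clone was left out, with 10 without knockdown clone 1 and 3 to 6 without any 1 of the others. The shares over all genes are not given for these alternatives, so the counts cannot be set against a background. The counts of 0 cover only the 8 genes that the filter on dim genes kept. MAGEC1 and MAGEA11 were not among them, so the 2 genes without overlap in the main fit could not be counted there. The median was 0.085 over the 8 genes of the set kept without the dimmest genes. Over the whole set it was -0.066 with array weights and -0.061 to 0.024 when 1 clone was left out, lowest without knockdown clone 1.

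The median of the factors that act on these promoters was -0.031 after quantile normalization, -0.041 after cyclic loess, -0.053 with array weights and -0.094 to -0.049 with 1 clone left out. That of the further cancer-testis genes was -0.018 over the 10 kept without dim genes, 0.023 with array weights and 0.015 to 0.079 with 1 clone left out. That of the further germline genes was -0.007 after quantile normalization, -0.013 after cyclic loess and -0.006 to 0.054 with 1 clone left out. Over the 18 germline genes kept without dim genes it was -0.011. With array weights CEP55 passed of the 38 further cancer-testis genes and GTSF1 of the 61 further germline genes. In that fit 325 of all 16704 genes passed, so this is no result about these lists.

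Over all genes the count that passed was 1 after quantile normalization and after cyclic loess, 325 with array weights and 0 to 70 with 1 clone left out, with 70 without knockdown clone 1. With array weights MBD2 had -1.27 (adjusted p = 0.0138) and the XAGE1A and XAGE1B feature 1.80 (adjusted p = 0.00974); with 1 clone left out they ranged from -1.44 to -1.19 and from 1.45 to 1.87. The cause of these shifts was not tested. The number of genes at background level was 21 to 23 under all alternatives.

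The replicate number as a block left the counts at 2 and 0 and the MBD2 difference at -1.28. Same-numbered clones correlated at -0.025, -0.189 and 0.174 in their deviations from the group means, across genes. Differently numbered clones correlated at -0.165 to 0.218. With 3 clones per group these deviations depend on each other, so they cannot tell whether same-numbered clones share a batch.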

Other observations

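Another X-linked antigen gene outside the set, PAGE1, chosen after its values were seen, was highest in the 2 clones where MAGEA1 was high. Knockdown clone 2 came next for PAGE1, while MAGEA1 was low there at 6.03. The log2 values of PAGE1 were 6.45, 7.48 and 6.20 in control clones 1 to 3 and 7.66, 7.09 and 6.70 in knockdown clones 1 to 3, with overlap between the groups (log2 difference 0.43, 95% interval -0.40 to 1.27).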
